A study of Rattus norvegicus with 20 samples.

Results

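The proteasome genes of the rat choroid plexus were taken as every Ensembl gene whose symbol in the gene tables supplied with the study starts with Psma, Psmb, Psmc, Psmd, Psme, Psmf or Psmg. This gave 34 of the 32883 genes listed for each rat. Symbols could be had for 2616 genes, and these are mostly the abundant ones, so a high level is a condition of membership and not a result. Other proteasome genes, among them Psmb8, Psmb10, Psme3 and Psmf1, had no symbol there and were not analysed here. The 34 genes are 7 of the alpha ring and 7 of the beta ring of the 20S core, 1 immunoproteasome catalytic subunit (Psmb9), 9 of the base and 6 of the lid of the 19S regulatory particle, 2 of the PA28 activator and 2 assembly chaperones.

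RNA of the choroid plexus was sequenced from 20 female Zucker rats, 1 library a rat, at 16 weeks of age. An untreated cohort held 6 lean (+/fa) and 6 obese (fa/fa) rats, the latter with the leptin receptor mutation on both alleles. An injected cohort held 4 lean rats given sesame oil (lean control) and 4 obese rats given 1 mg of testosterone propionate in sesame oil, 2 times a week for 4 weeks (obese + TT). No obese rats given oil alone were analysed here, so obesity and testosterone cannot be told apart between the injected groups. Choroid plexus of the lateral and the fourth ventricle was pooled within a rat, and 1 allele of the leptin receptor is also mutant in the lean rats. Values are TPM, a level per transcript length relative to all transcripts of a library, and the number of reads behind a TPM is not given.

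The proteasome degrades proteins that carry ubiquitin chains. The 20S core is a barrel of alpha rings, which gate the entry, and beta rings, of which Psmb5, Psmb6 and Psmb7 carry the proteolytic sites. The 19S particle, made of a lid and a base, binds the ubiquitylated protein. The ATPases Psmc1 to Psmc6 unfold the protein, while PA28 (Psme1 and Psme2) opens the core without ubiquitin or ATP. Under interferon gamma, Psmb9 takes the place of Psmb6, and the resulting immunoproteasome favours cuts that yield peptides for MHC class I. The choroid plexus is an epithelium that secretes cerebrospinal fluid around a core of fibroblasts, fenestrated vessels and macrophages.

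The 10 epithelial markers were all named and summed to 320204 to 400872 TPM in the untreated and 270800 to 317084 TPM in the injected rats, most of it from Ttr, the transthyretin gene, at 25.8 to 39.3% of all TPM. In the untreated cohort, lean rat 6 (39.0% Ttr) had the lowest TPM of its group for 34 of 34 proteasome genes and obese rat 10 (39.3% Ttr) for 29 of 34. In the injected cohort, obese + TT rat 20 was lowest for 24 of 34. After each library was scaled by its median ratio over genes, the counts were 21, 7 and 21 of 34. By limma with an adjusted p under 0.05, 8 of the 10 epithelial markers were higher and 0 lower in lean control than in lean rats (median log2 fold change 0.51), and 7 were higher and 1 lower, Ttr, in obese + TT than in obese rats (median 0.62), against 41.7% of all genes higher in each. FPKM over all genes summed to between 1108541 and 1219937 in the untreated rats and to between 920964 and 995159 in the injected rats, and the median gene was 0.24 (lean control over lean) and 0.25 (obese + TT over obese) higher on the log2 scale of TPM. Of the non-epithelial markers, Plvap of fenestrated endothelium (1 of 5 markers named) lay at 40.0 to 60.3 TPM in the untreated and at 1.68 to 10.6 TPM in the injected rats. The fibroblast markers Dcn and Col1a1 (2 of 5 named) summed to 80.9 to 115 and 7.35 to 15.3 TPM, and the immune markers Cd74 and Lyz2 (2 of 12 named) to 415 to 546 and 95.2 to 284 TPM. Of the erythroid markers 4 of 5 were named, with sums of 3105 to 5471 TPM in lean, 4052 to 7019 in obese, 2168 to 5768 in lean control and 4799 to 8388 in obese + TT rats. Their median log2 fold change was 0.42 and 1.13 between obese and lean rats of the untreated and the injected cohort, with 4 and 3 of 4 at an unadjusted p under 0.05 and 0 called by limma. Of the brain parenchyma markers 0 of 6 were named, and no named marker was at 0 in every rat. The part of these markers in the proteasome results was not tested.

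**Figure D1:**
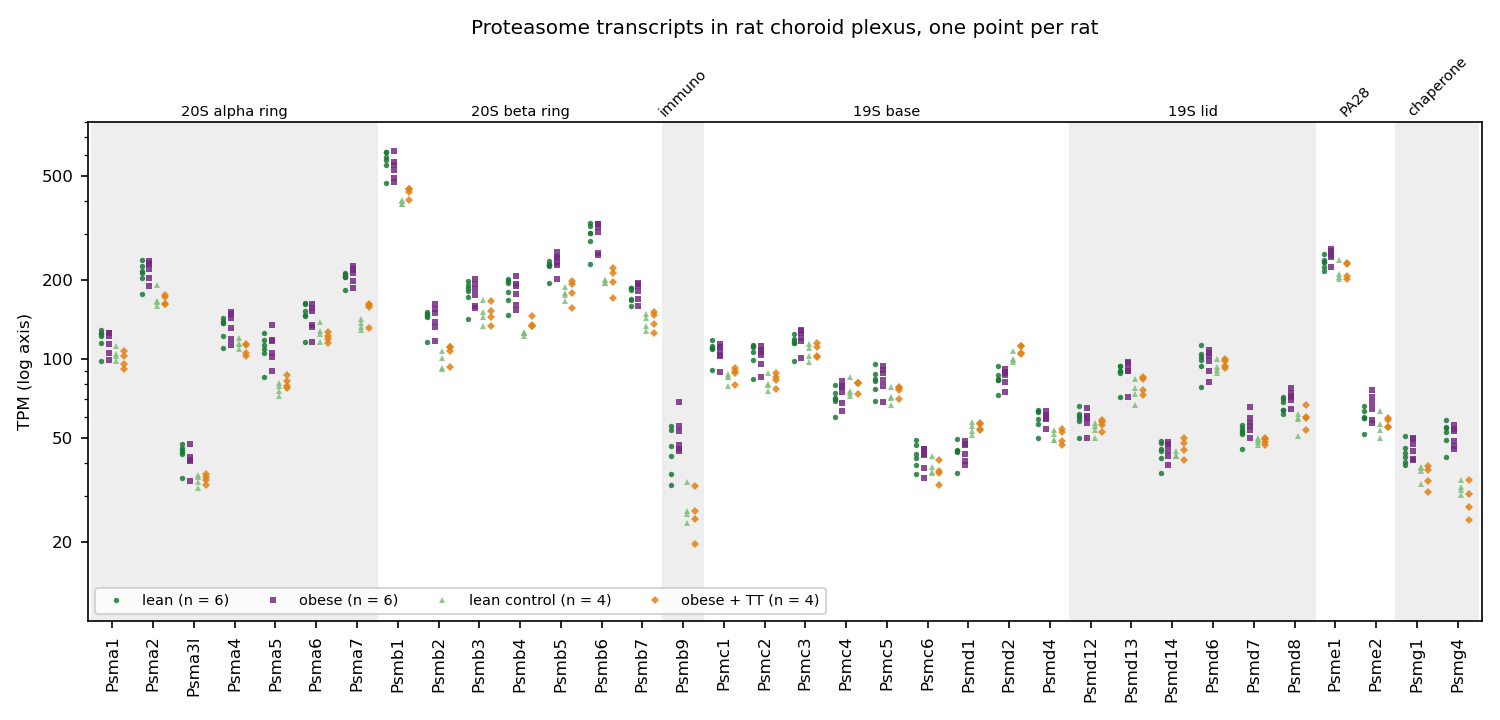
TPM (log axis) of the 34 proteasome genes, grouped by role along the horizontal axis, with 1 point for each of the 6 lean, 6 obese, 4 lean control and 4 obese + TT rats. Lean and obese points overlap for every gene, while in the beta ring most points of the injected groups sit below those of the untreated groups.

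Psmb1, a structural beta subunit, had the highest mean level of the 34 genes in all 4 groups. Its mean was 568 ± 53.9 TPM (SD, n = 6) in lean, 536 ± 54.2 TPM (n = 6) in obese, 396 ± 7.39 TPM (n = 4) in lean control and 431 ± 18.5 TPM (n = 4) in obese + TT rats. Next in lean rats came the catalytic subunit Psmb6 at 295 ± 36.1 TPM, the PA28 subunit Psme1 at 233 ± 11.7 TPM and the catalytic subunit Psmb5 at 224 ± 15.0 TPM. When the 34 genes were ordered by mean, Psmb1 was the only one in lean and in obese rats whose values did not overlap those of its next neighbour, and the other 32 of 33 neighbouring pairs overlapped. In lean control rats 25 of 33 and in obese + TT rats 28 of 33 pairs overlapped. Psmb9 varied most among rats in each group, with a coefficient of variation of 20.1% in lean, 17.3% in obese, 16.6% in lean control and 20.8% in obese + TT rats, against a median over the 34 genes of 9.48, 9.57, 5.60 and 6.15%.

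The first comparison asked whether the choroid plexus of untreated obese rats carried other proteasome levels than that of lean rats. No difference passed the test, which was limma on TPM. The authors' own test on gene counts (DESeq2) did call genes between obese and lean rats in both cohorts. The counts of 0 over all genes given here therefore hold for limma on TPM only, and the 2 sets of calls were not compared. With limma on log2(TPM + 0.1), 0 of the 34 genes were called at an adjusted p under 0.05, 0 had an unadjusted p under 0.05, and the same 2 counts over all 15176 genes tested were 0 (0.0%) and 1466 (9.66%). The 34 log2 fold changes ran from -0.08 (Psmb1) to 0.24 (Psmb9), with 21 above and 13 below 0 (55.7 and 44.3% of all genes) and a median of 0.02, the same as that of all genes to 2 decimals. Of the 34 genes 0 had lean and obese values apart in either direction. Of all genes 0.297% were apart and higher in obese rats, and the share apart and lower was not taken. On the FPKM scale and with median-ratio scaling 0 of 34 were called and 2 had an unadjusted p under 0.05, against 1822 of 15347 and 1896 of 15259 genes. The split by sign turned on single rats. It was 11 higher and 23 lower without lean rat 6 (median -0.035), 29 and 5 without obese rat 10 (median 0.060), and 18 and 16 without both.

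The catalytic subunits of the constitutive core were close in the untreated groups. Psmb5, the chymotrypsin-like subunit, ran from 194 through a median of 228 to 237 TPM in lean and from 201.0 through 237 to 254 TPM in obese rats (log2 fold change 0.06, 95% interval -0.08 to 0.20). Psmb6, the caspase-like subunit, ran from 230 through 302 to 330 and from 249 through 310 to 327 TPM (0.01, interval -0.20 to 0.21). Psmb7, the trypsin-like subunit, ran from 160 through 176 to 187 and from 159 through 185 to 195 TPM (0.05, interval -0.09 to 0.18). The lowest lean value of all 3 is that of rat 6, and the lean and obese ranges overlap for each.

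The 3 genes with the smallest p in the untreated cohort belonged to PA28, the lid and the immunoproteasome. Psme1 ran from 216 through 234 to 250 TPM in lean and from 225 through 252 to 263 TPM in obese rats (log2 fold change 0.10, SE 0.05, limma adjusted p = 0.610). Psmd8, a lid subunit, ran from 61.6 through 66.1 to 71.4 and from 64.4 through 71.6 to 77.4 TPM (0.10, SE 0.06, adjusted p = 0.627 by limma). Psmb9 ran from 33.1 through 44.6 to 55.5 and from 44.5 through 49.8 to 68.5 TPM (0.24, SE 0.14, adjusted p = 0.629 by limma). The obese median was the higher one for each, by less than the range within either group. The interval for Psmb9, -0.06 to 0.53, is the widest of the 34.

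The partner of Psme1 in PA28, Psme2, lay between. It ran from 51.6 through 59.8 to 65.9 TPM in lean and from 56.8 through 66.1 to 76.0 TPM in obese rats (0.13, SE 0.08, limma adjusted p = 0.659). The chaperones Psmg1 and Psmg4, which help the alpha ring to form, had log2 fold changes of 0.06 (interval -0.10 to 0.22) and -0.03 (interval -0.21 to 0.14).

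**Figure D2:**
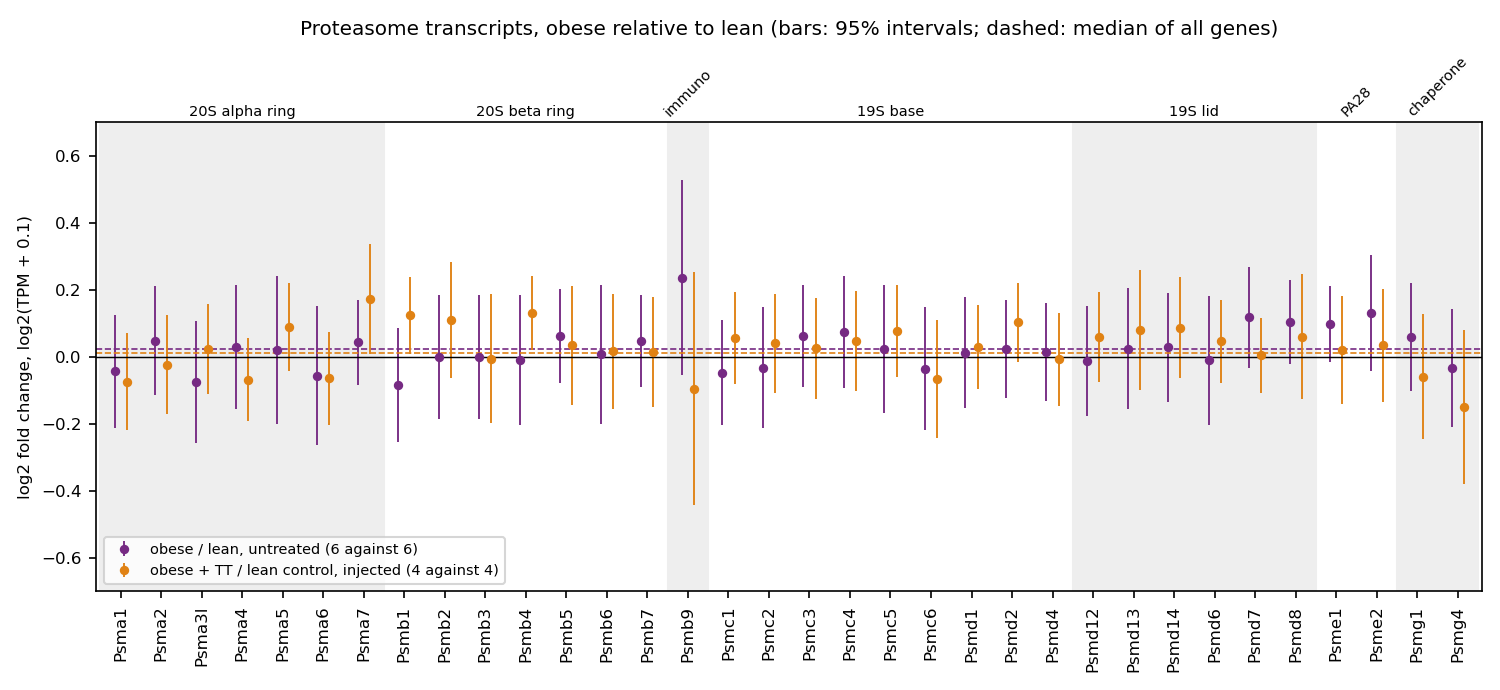
Log2 fold change on log2(TPM + 0.1) with 95% intervals for the 34 genes, obese over lean in the untreated cohort (6 against 6 rats) and obese + TT over lean control in the injected cohort (4 against 4), with the all-gene medians of 0.02 and 0.01 as dashed lines. Values run from -0.08 to 0.24 and from -0.15 to 0.17, and no untreated interval leaves 0 out.

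Between the injected groups the same test called 0 of the 34 genes, and 0 (0.0%) of the 15259 genes tested. Here 3 of 34 had an unadjusted p under 0.05, against 1134 genes (7.43%) over all. The log2 fold changes ran from -0.15 (Psmg4) to 0.17 (Psma7), 24 above and 10 below 0 (52.6 and 47.4% of all genes), with a median of 0.03 against 0.01 for all genes. The 3 genes are core subunits.

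Psmb4, a structural beta subunit, stood at 127, 125, 126 and 122 TPM in lean control and at 146, 133, 135 and 133 TPM in obese + TT rats. All 4 obese + TT values exceed all 4 lean control values, and the log2 fold change was 0.13 (SE 0.05, limma adjusted p = 0.611). Psmb1 stood at 400, 391, 404 and 388 TPM in lean control and at 433, 444, 443 and 404 TPM in obese + TT rats (0.12, SE 0.05, limma adjusted p = 0.659). Its groups are also apart, by less than 1 TPM between the nearest rats. For both genes the two-sided exact permutation p over rats was 0.0286, the smallest that 4 against 4 can give. Values apart and higher were found for 2 of 34 proteasome genes and for 2.37% of all genes.

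Psma7, an alpha subunit, stood at 142, 137, 133 and 129 TPM in lean control and at 160, 162, 158 and 132 TPM in obese + TT rats. Obese + TT rat 20 lies within the lean control range and the other 3 above it (log2 fold change 0.17, SE 0.07, limma adjusted p = 0.668). None of the 3 kept an unadjusted p under 0.05 on the FPKM or the median-ratio scale. Psmb9 stood at 34.0, 23.7, 25.6 and 26.3 TPM in lean control and at 24.5, 26.2, 32.7 and 19.8 TPM in obese + TT rats, so the groups overlap (-0.10, SE 0.16, interval -0.44 to 0.25). Psme1 and Psme2 differed by 0.02 (interval -0.14 to 0.18) and 0.03 (interval -0.13 to 0.20).

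Whether the obese to lean difference itself differed between the cohorts was tested over all 20 libraries. Of the 34 genes 0 were called and 0 had an unadjusted p under 0.05, against 0 (0.0%) called and 1288 (8.36%) of all 15406 genes by limma. The 3 smallest p belonged to Psmb1, Psmb9 and Psma7. The difference, injected minus untreated, was 0.21 (SE 0.11, limma adjusted p = 0.627) for Psmb1. For Psmb9 it was -0.33 (SE 0.22, limma adjusted p = 0.730), with an interval of -0.80 to 0.13. For Psma7 it was 0.13 (SE 0.09, adjusted p = 0.766 by limma).

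The comparisons between cohorts at 1 genotype, lean control against lean and obese + TT against obese, changed many genes. In the lean pair, in which no rat received the hormone, oil injection and cohort cannot be told apart, and in the obese pair injection, hormone and cohort cannot. A gene abundant in only 1 cohort could have a symbol, so differences of the members between cohorts may partly follow from their naming. The last of the 34 genes by mean stood at 42.8 TPM in lean, 41.2 in obese, 27.4 in lean control and 25.8 in obese + TT rats. The part of the naming was not tested. In lean control relative to lean, 22 of the 34 proteasome genes were called, 20 lower and 2 higher, while of all 15326 genes tested 58.2% were called, 16.5% lower and 41.7% higher. In obese + TT relative to obese, 25 of 34 were called, 23 lower and 2 higher, against 58.1% of 15389 genes, 16.4% lower and 41.7% higher. Among genes within the level range of the members, 25.5% and 25.01% were called lower and 35.1% and 37.9% higher. The median log2 fold change of the 34 genes was -0.22 and -0.25, against 0.24 and 0.25 for all genes, and 32 of 34 lay below the all-gene median in each comparison. On the FPKM scale 31 and 32 of 34 were called lower and 0 higher, and all genes then split into 4453 higher and 4470 lower in the lean pair and 4237 and 4503 in the obese pair. With median-ratio scaling the splits over all genes were 4887 and 4179, and 4686 and 4147, in place of 6394 and 2531, and 6418 and 2523, on the TPM scale. Without Ttr and the mitochondrial genes they were 5684 and 3452, and 5488 and 3470. Of the 34 genes, median-ratio scaling called 31 lower and 0 higher in the lean pair, and 31 and 1 in the obese pair. Leaving out Ttr and the mitochondrial genes gave 30 lower and 2 higher, and 29 and 2. Without lean rat 6 and obese rat 10, 26 and 28 of 34 were called lower and 2 higher in each.

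**Figure D3:**
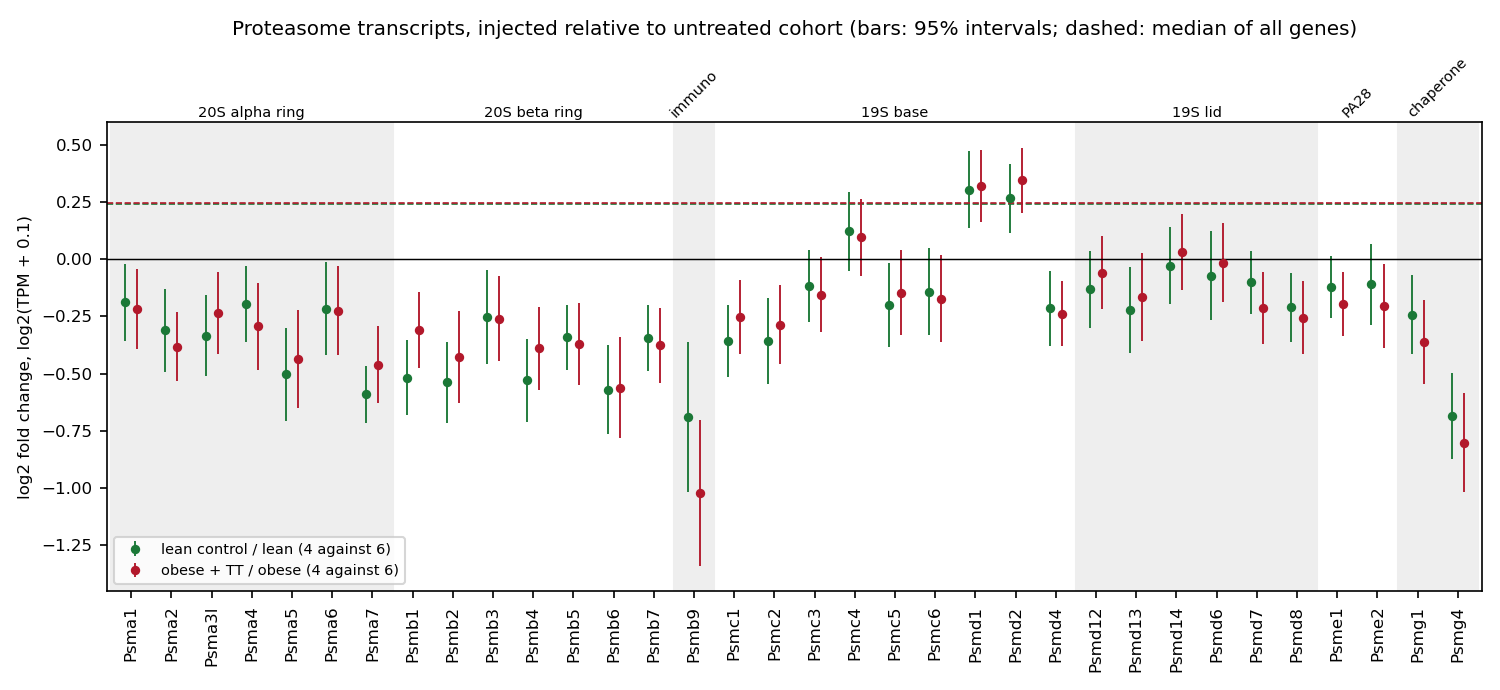
Log2 fold change on log2(TPM + 0.1) with 95% intervals for the 34 genes, injected over untreated at each genotype (4 against 6 rats), with the all-gene medians of 0.24 and 0.25 as dashed lines. The 7 beta subunits, Psmb9 and the chaperones lie below 0, and Psmd1 and Psmd2 lie above it.

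By role, the calls on the TPM scale were as follows. All 7 beta ring genes were called lower in both comparisons, with medians of -0.52 (lean pair) and -0.38 (obese pair). Of the 7 alpha ring genes, all of which had a log2 fold change below 0, 5 and 7 were called lower, with medians of -0.31 and -0.29. Of the 9 base genes 3 were called lower and 2 higher in each comparison, with 6 of 9 below 0. Of the 6 lid genes 2 were called lower in each, with 6 and 5 below 0. Both chaperones were called lower in both pairs, and of PA28, with both genes below 0, 0 of 2 in the lean pair and 1 of 2 (Psme1) in the obese pair. The difference between roles was not tested, and on the FPKM scale 31 and 32 of the 34 genes of all roles were called lower.

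Psmb6 gave a clear separation in the beta ring. It stood at 200, 194, 200 and 195 TPM in lean control, below the 230 TPM of the lowest lean rat, and fell by 0.57 on the log2 scale (SE 0.09, limma adjusted p = 0.000154), which is 33.1% of the mean. It stood at 221, 197, 212 and 171 TPM in obese + TT rats, below the 249 TPM of the lowest obese rat, and fell by 0.56 (SE 0.10, limma adjusted p = 0.000481). The other catalytic core subunits changed the same way. Psmb5 stood at 166, 178, 174 and 188 TPM in lean control and at 178, 193, 198 and 156 TPM in obese + TT rats, and fell by 0.34 and 0.37. Psmb7 stood at 143, 134, 148 and 127 TPM and at 136, 146, 151 and 125 TPM, and fell by 0.34 and 0.38. All 4 injected rats lay below all 6 untreated rats of the genotype for these 3 genes, in both comparisons, which gives the smallest exact permutation p of 4 against 6 (0.00952, two-sided).

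Psmb1 and Psmb4, for which the injected groups were apart, lay below the untreated rats too. Psmb1 fell by 0.52 (SE 0.07, limma adjusted p = 7.93e-05) in the lean pair and by 0.31 (SE 0.08, limma adjusted p = 0.00407) in the obese pair. Psmb4 fell by 0.53 and 0.39. In the alpha ring Psma7 fell by 0.59 (SE 0.06, adjusted p = 2.99e-06 by limma) and by 0.46 (SE 0.08, adjusted p = 0.000279 by limma). Every lean control value of Psma7 was under 143 TPM and every lean value at or above 182 TPM. Psma5, also of the alpha ring, fell by 0.50 and 0.43, and Psma2 fell by 0.31 and 0.38. Psma4 fell by 0.19 and 0.29. Psma1 and Psma6 were not called in the lean pair (-0.19 and -0.22) and fell by 0.22 each in the obese pair. In the beta ring Psmb2 fell by 0.54 and 0.43, and Psmb3 fell by 0.25 and 0.26. Psma3l is a near copy of Psma3, whose reads it may share, and its fall of 0.33 and 0.24 is uncertain for that reason. Values lower and apart were found for 12 of 34 proteasome genes in the lean pair and 14 of 34 in the obese pair, against 10.7% and 11.7% of all genes. Values higher and apart were found for 2 of 34 in each pair, against 34.0% and 34.1% of all genes.

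Psmg4 had the smallest adjusted p in the obese pair. Lean rats ran from 42.1 through 53.6 to 58.4 TPM, and lean control rats stood at 30.2, 31.6, 34.5 and 32.4 TPM. Obese rats ran from 45.4 through 50.9 to 55.8 TPM, and obese + TT rats stood at 24.4, 30.6, 34.5 and 27.2 TPM. No injected rat reached the lowest untreated one, and the gene fell by 0.68 (SE 0.09, limma adjusted p = 2.76e-05) and by 0.80 (SE 0.10, limma adjusted p = 3.23e-05). Psmg1, the other chaperone, stood at 33.3, 38.8, 37.4 and 38.2 TPM in lean control and at 34.3, 38.9, 37.6 and 31.2 TPM in obese + TT rats. It fell by 0.24 from a lean range of 39.3 to 50.9 TPM and by 0.36 from an obese range of 41.0 to 49.9 TPM.

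In the 19S particle the direction was mixed on the TPM scale. Psmd1 and Psmd2, the large scaffold subunits of the base that hold ubiquitin receptors, were higher. Psmd2 ran from 72.7 through 83.6 to 93.9 TPM in lean rats and stood at 98.8, 100, 97.2 and 107 TPM in lean control rats. It ran from 74.6 through 87.5 to 91.8 TPM in obese rats and stood at 104.1, 111.5, 111.7 and 105.4 TPM in obese + TT rats. All injected values exceed all untreated ones, with log2 fold changes of 0.27 (SE 0.07, limma adjusted p = 0.00531) and 0.35 (SE 0.07, limma adjusted p = 0.000710). Psmd1 ran from 36.7 through 44.4 to 49.5 TPM in lean rats and stood at 53.0, 51.1, 55.4 and 57.7 TPM in lean control rats. It ran from 39.2 through 45.2 to 48.5 TPM in obese rats and stood at 53.9, 56.7, 57.0 and 53.7 TPM in obese + TT rats, with log2 fold changes of 0.30 and 0.32. These rises lie 0.02 to 0.10 above the median gene. On the FPKM scale the log2 fold change was 0.05 for Psmd1 in both pairs, and 0.01 and 0.07 for Psmd2, none of them called. With median-ratio scaling it was 0.09 and 0.10 for Psmd1 and 0.05 and 0.12 for Psmd2. Of these only the 0.12 of Psmd2 in the obese pair was called (limma adjusted p = 0.0367).

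The ATPase Psmc4 had log2 fold changes of 0.12 and 0.10 that were not called, and its sign turned to -0.14 and -0.18 on the FPKM scale and to -0.091 and -0.13 with median-ratio scaling. Of these, the -0.18 was a call (limma adjusted p = 0.0337). Of the other ATPases, Psmc1 fell by 0.36 and 0.25 and Psmc2 by 0.36 and 0.29. The ubiquitin receptor Psmd4, of the base, fell by 0.21 and 0.24. Psmc3, Psmc5 and Psmc6 were not called in either pair, at -0.12 to -0.20. In the lid, Psmd8 stood at 58.9, 50.6, 59.3 and 61.3 TPM in lean control and at 59.4, 67.0, 60.1 and 53.4 TPM in obese + TT rats, and fell by 0.21 and 0.25. Psmd13 fell by 0.22 in the lean pair (-0.16 and not called in the obese pair), and Psmd7 fell by 0.21 in the obese pair (-0.10 and not called in the lean pair). The test over 20 libraries called neither as different between the pairs. Psmd6, Psmd12 and Psmd14, the last of which is the deubiquitinase of the lid, were not called in either pair. Psmd14 was at 0.03 in the obese pair and turned to -0.24 on the FPKM scale and -0.19 with median-ratio scaling, both called (limma adjusted p = 0.0228 and 0.0414).

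Psmb9 had the largest log2 fold change in size of the 34 genes between cohorts, though in the lean pair by little over Psmg4 (-0.68). Psmb9 fell by 0.69 (SE 0.15, limma adjusted p = 0.00176) in the lean pair, where lean control rat 13 at 34.0 TPM lay just above the lowest lean rat at 33.1 TPM. It fell by 1.02 (SE 0.15, limma adjusted p = 9.20e-05) in the obese pair, from a mean of 52.2 ± 9.05 TPM (SD, n = 6) to 25.8 ± 5.37 TPM (n = 4), so that the mean dropped by 50.6%. The obese and obese + TT values are apart by more than 11 TPM. Psmb9 is also expressed in immune and endothelial cells. Of their markers only 2 of 12 (immune) and 1 of 5 (endothelial) were named, and symbols were had mostly for abundant genes. The named ones were lower in the same rats. Their log2 fold changes were -1.21 and -2.11 for Cd74, -1.29 and -1.68 for Lyz2 and -3.41 and -3.43 for Plvap. The direction of the unnamed markers is not known, and the part of these cells in the result was not tested. In bulk tissue, fewer cells of a type and less RNA per cell cannot be told apart.

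Psme1 and Psme2, which interferon gamma also induces, had smaller differences. Psme1 stood at 202, 206, 238 and 211 TPM in lean control (-0.12, limma adjusted p = 0.117) and at 207, 230, 232 and 200.7 TPM in obese + TT rats, where it fell by 0.20 (limma adjusted p = 0.0190). Psme2 stood at 53.3, 49.9, 63.2 and 56.2 TPM (-0.11, limma adjusted p = 0.273) and at 54.8, 54.9, 59.4 and 58.2 TPM (-0.20, limma adjusted p = 0.0558). Lean control rat 15 was the highest of its group for both. Injected and untreated values overlapped for both genes at both genotypes.

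**Figure D4:**
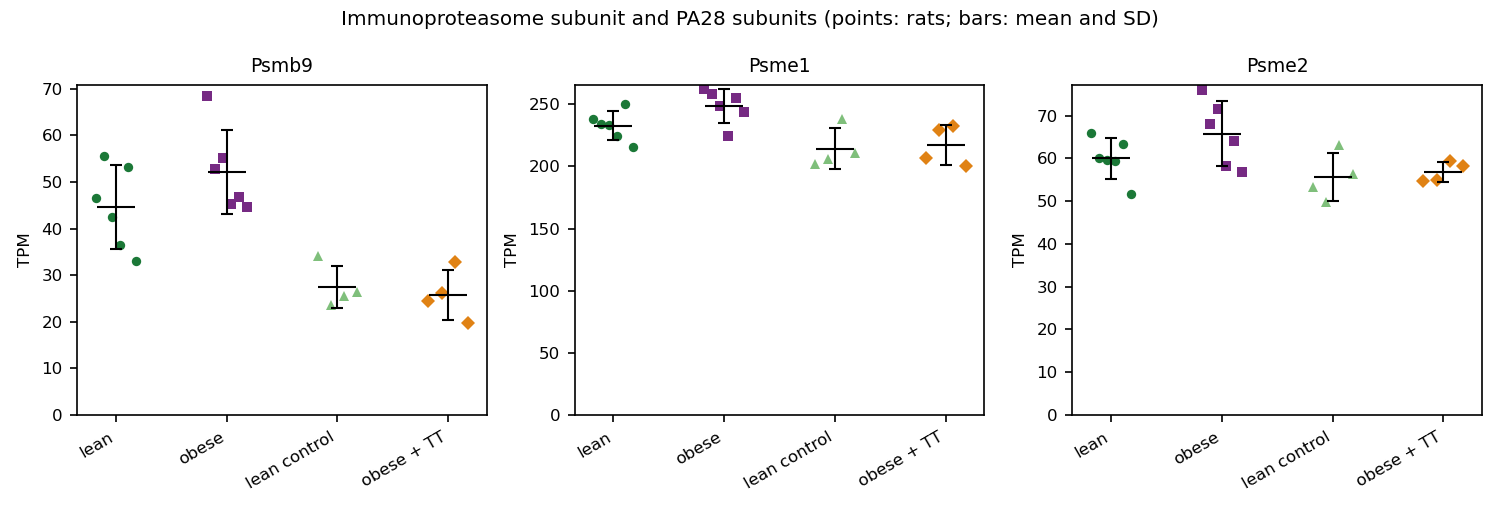
TPM (linear axes from 0) of Psmb9, Psme1 and Psme2 in each rat of the 4 groups, with mean and SD as bars. Psmb9 averages 52.2 TPM in obese and 25.8 TPM in obese + TT rats, while the ranges of Psme1 and Psme2 overlap between all groups.

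Ratios within a library do not depend on a factor shared by all its genes, but a factor that varies with transcript length would not cancel. The mean transcript length implied by the FPKM sums was 820 to 902 bases in the untreated and 1005 to 1086 bases in the injected rats. Its part in the ratios was not tested. The mean of the 15 19S genes over the mean of the 14 constitutive 20S genes was 0.364 to 0.394 in lean, 0.369 to 0.426 in obese, 0.458 to 0.497 in lean control and 0.461 to 0.485 in obese + TT rats. The cohorts do not overlap, and the genotypes do within each cohort. The PA28 mean over the 20S mean was 0.709 to 0.828, 0.748 to 0.848, 0.877 to 1.00 and 0.845 to 0.936. Psmd2 over Psmb6, a pair chosen after its values were seen, was 0.252 to 0.317, 0.257 to 0.369, 0.486 to 0.551 and 0.471 to 0.617. Psmb9 over Psmb6, the subunit it replaces, was 0.113 to 0.197 in lean, 0.154 to 0.210 in obese, 0.122 to 0.170 in lean control and 0.111 to 0.154 in obese + TT rats. That ratio overlapped between every pair of groups, though the highest obese + TT rat and the lowest obese rat both stood at 0.154. No test was run on these ratios.

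**Figure D5:**
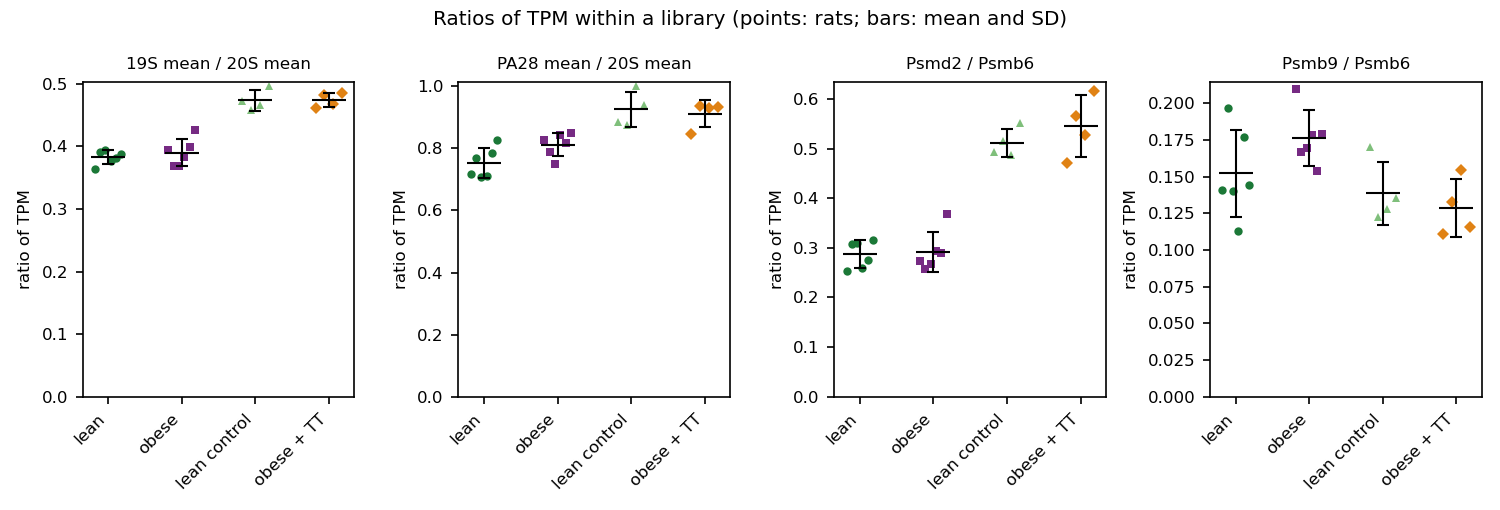
Ratios of TPM within each library (linear axes from 0) for the 4 groups, with mean and SD as bars. The 19S over 20S ratio lies at 0.364 to 0.426 in the untreated and 0.458 to 0.497 in the injected rats, and Psmb9 over Psmb6 overlaps between every pair of groups, for obese and obese + TT rats only at 0.154.

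Across the 12 untreated rats Psmb9 was set beside 4 genes that act with it in antigen presentation, on log2(TPM + 0.1). The correlation of Psmb9 with other genes was not computed, so the values cannot show a relation particular to these 4. Lean rat 6 was the lowest of its group for 34 of 34 proteasome genes, which may add to any correlation among them on the TPM scale. Pearson's r was 0.83 with Psme2 (permutation p = 0.00076, 0.00304 adjusted over the 4 genes) and Spearman's rho was 0.79 (permutation p = 0.00322, adjusted 0.0129). With Psme1 r was 0.80 (permutation p = 0.00162, adjusted 0.00324) and rho 0.73 (permutation p = 0.0101, adjusted 0.0203). With Tapbp, the peptide loading protein tapasin, r was 0.71 (permutation p = 0.00714, adjusted 0.00952) and rho 0.59 (permutation p = 0.0471, adjusted 0.0629). With B2m, the light chain of MHC class I, r was 0.10 (permutation p = 0.754) and rho 0.28 (permutation p = 0.382). Without the 2 rats farthest from the median of Psmb9, lean rat 6 and obese rat 7, r was 0.58 with Psme2 (permutation p = 0.0720), 0.59 with Psme1 (permutation p = 0.0726), 0.44 with Tapbp and 0.04 with B2m. The values stayed above 0 for the 2 PA28 genes, but none passed the threshold over the 10 rats left on the TPM scale. With median-ratio scaling the r over those 10 was 0.64 with Psme1 (permutation p = 0.0414) and 0.59 with Psme2 (permutation p = 0.0723). It was 0.43 with Tapbp (permutation p = 0.212) and 0.07 with B2m (permutation p = 0.850). These p over 10 rats are not adjusted over the 4 genes. Within the 6 lean rats r was 0.71 with Psme2, 0.86 with Psme1, 0.82 with Tapbp and 0.79 with B2m. Within the 6 obese rats it was 0.93, 0.65, 0.80 and 0.42. The values over 12 rats pool both genotypes, and their permutations crossed genotypes, so a difference between lean and obese rats enters their r and p. B2m averaged 651 ± 33.8 TPM (SD, n = 6) over the lean rats, and over the obese ones its mean was 596 ± 23.3 TPM (SD, n = 6). The r of 0.93 for Psme2 in obese rats passed the correction over 4 genes within its group (exact permutation p = 0.00278, adjusted 0.0111), and the other 7 values within a group did not.

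Of a list of 22 other proteasome genes, 4 had a symbol. In each pair 2 of the 4 were called lower and 0 higher (all genes 16.5% and 16.4% lower, 41.7% higher in each). Sem1, a small lid subunit, fell by 0.44 and 0.52 between the cohorts (limma adjusted p = 0.00116 and 0.000463), and Pomp, the maturation factor of the core, fell by 0.18 and 0.27 (limma adjusted p = 0.0489 and 0.0135). The ubiquitin receptor Adrm1 had log2 fold changes of -0.034 and -0.0048 and was not called. Txnl1 was not called either, with means of 87.3 TPM in lean, 92.5 in lean control, 93.4 in obese and 91.6 in obese + TT rats. Of the 28 genes of a ubiquitin pathway list 22 were named, of which 8 were called higher and 5 lower in the lean pair (all genes 41.7% and 16.5%) and 9 and 5 in the obese pair (all genes 41.7% and 16.4%), with medians of 0.00 and 0.04. Nfe2l1, the transcription factor that raises proteasome genes when the proteasome is impaired, went the other way from most of the 34 genes. It ran from 32.9 through 36.9 to 41.0 TPM in lean and from 64.9 to 73.1 TPM in lean control rats, a log2 fold change of 0.93 (SE 0.07, limma adjusted p = 6.94e-07). It ran from 29.8 through 36.0 to 42.3 TPM in obese and from 64.8 to 71.5 TPM in obese + TT rats (0.94, SE 0.09, limma adjusted p = 7.08e-06). Nfe2l1 and the 34 genes all belong to the mostly abundant genes with a symbol, and the part of this naming in the contrast was not tested. Rps27a, a ubiquitin and ribosomal protein fusion, fell by 1.93 and 0.98, and Rbx1, the RING subunit of cullin ligases, fell by 0.68 in the lean pair and fell by 1.24 in the obese pair.

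Of 26 genes of MHC class I presentation and the interferon response 14 were named, Psmb9, Psme1 and Psme2 among them. In the lean pair 5 were called higher and 3 lower, and in the obese pair 5 and 4, beside the same shares of all genes. Among those called, the chaperone Calr rose by 0.71 and 0.75, the peptide trimming enzyme Erap1 by 0.68 and 0.62, the loading complex member Pdia3 by 0.40 and 0.46 and Tapbp by 0.46 and 0.68, while B2m fell by 0.24 and 0.38. No gene of the 3 lists was called between obese and lean in either cohort. In the untreated cohort 0 of the 22 ubiquitin pathway genes and 4 of the 14 presentation genes had an unadjusted p under 0.05 (all genes 9.66%), led by RT1-CE5 (-0.60) and Canx (-0.17). In the injected cohort these counts were 4 and 2 (all genes 7.43%), led by Cul4b (0.31) and Rbx1 (-0.52), and by B2m (-0.26) and Tapbp (0.22).

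RefSeq promoter windows of the assembly GRCr8, from 250 bases before to 50 after the start, were held for 29 of the 34 genes. They were searched on both strands for TGACNNNGC, the core of the antioxidant response element that Nfe2l1 binds, for CCAAT and for an interferon-type repeat, GAAA followed after 2 bases by GAAA, of the kind that interferon regulatory factors bind. TGACNNNGC was found in 4 of 29 (13.8%), against 12.1% of 33469 promoters, CCAAT in 14 of 29 (48.3% against 37.5%) and the repeat in 5 of 29 (17.2% against 3.92%), which are Psma4, Psmb3, Psmd7, Psme2 and Psmg4. The 4 genes with TGACNNNGC are 3 beta subunits that fell between the cohorts and Psmd1, which was higher, so they are shown together with Psme2 as 1 example of the 5 with the repeat. Another TGACNNNGC of Psmd1 lies 22 to 30 bases after the start and is not shown. Of the repeats not shown, that of Psmg4 lies 7 to 16 bases after the start, and those of Psmb3 and Psmd7 read on the opposite strand. The 30 bases around each match shown are on the strand of the gene, 5′ to 3′, with the match in capitals. The Psmb2 stretch is chr5:144254980-144255009 (+) and ends its match 60 bases before the start. The Psmb5 stretch is chr15:32047420-32047449 (-), with a match ending 52 bases before the start. The Psmb6 stretch is chr10:55737854-55737883 (+), with a match ending 16 bases before the start. The Psmd1 stretch is chr9:94157796-94157825 (+), with a match ending 157 bases before the start, and the Psme2 stretch is chr15:33052785-33052814 (-), with a match ending 44 bases before it.
Psmb2: cccgcgccaaTGACCGGGCggtcgcatatc
Psmb5: cgtgaagctgTGACGTCGCggcgttgcccg
Psmb6: ctaaagagagTGACGGAGCgctttacgacc
Psmd1: accagatctaTGACCTCGCgagaattataa
Psme2: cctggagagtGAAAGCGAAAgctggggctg
The CCAAT of Psmb2 ends on the first base of its TGACNNNGC match. The window of Psmb9 held no TGACNNNGC and no such repeat, and it shares 44 of its 300 bases with the window of Tap1, which lies on the opposite strand. These matches are letters in a window, and binding was not measured.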

How the data were processed

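Choroid plexus RNA of 20 rats was sequenced as paired-end reads of 150 bases. The authors mapped reads with STAR 2.7.9a to Rnor_6.0 with Ensembl 104 and ran DESeq2 on gene counts, and the submitters' processing notes also name RSEM 1.3.3. The authors deposited TPM and FPKM for 32883 genes per rat, and which tool made them is not given in the sources used here. TPM depend on everything else in a library, so an abundant transcript such as Ttr lowers all others, and the deposited FPKM served as an alternative scale. Counts were not analysed here, so limma 3.58.1 (R 4.3.3) was fitted to log2(TPM + 0.1). Genes averaging under 0.1 TPM in the fitted libraries were left out, and eBayes used the intensity trend. P-values were adjusted by Benjamini-Hochberg over all genes tested and called under 0.05. Fits held only the groups compared, and the difference between contrasts held all 20 libraries. A fold change on this scale understates that of low genes. Groups came from the labels, which number the rats 1 to 20. Libraries come from separate rats, and no 2 of a group shared more than 1.92% of values. Single genes were also tested by exact permutation over rats, and correlations by 100000 permutations (exact for 6 rats). Python 3.11.15 and scipy 1.17.1 were used. Scripts were tested on simulated data. Alternatives were a pseudocount of 1, no filter or a minimum of 1 TPM, FPKM, median-ratio scaling over genes averaging 10 TPM or more, TPM without Ttr and mitochondrial genes, eBayes without trend or robust, all 20 libraries in one fit, and leaving out rats. Symbols came from the supplied gene tables, of which only a shortened form was used. All 34 genes are named, and rat values are given for Psmb1, Psmb5, Psmb6, Psmb7, Psmb9, Psme1, Psme2, Psmg1, Psmg4, for the 3 genes with the smallest p in each comparison and, chosen after their values were seen, for Psmd1 and Psmd2. The members and all lists were chosen with earlier results of these data known.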

Additional observations from a re-analysis of the deposited data

Results flagged for a closer look

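In 176 groups of 4 or 6 values, 21 had an end value far from the rest by Dixon's test at the 95% level, where chance gives about 1 in 20, or 9. In lean rat 6 these were the low TPM of Psma3l (35.1), Psma6 (116), Psma7 (182), Psmb2 (116), Psmb5 (194), Psmc1 (90.5), Psmc3 (98.5) and Psmd13 (71.6), and the sums over the alpha ring (803), the lid (343) and all 34 genes (3583). In obese rat 10 they were Psmd13 (71.5) and the sum over the base (610), both low, and in obese rat 12 the high ratio of Psmd2 to Psmb6 (0.369).

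In the lean control group Psmd14 was high in rat 16 (44.6 TPM, the other 3 between 42.5 and 42.6), and the sum of the 34 genes was high in rat 15 (3563, the others between 3394 and 3420). In the obese + TT group rat 20 was low for Psma7 (132 TPM), Psmc4 (73.5) and the beta ring sum (1215), and rat 17 was high for Psmb4 (146) and low for the ratio of PA28 to 20S (0.845).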

How the results depend on the processing

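No paired analysis was possible because the labels number the rats 1 to 20 and no number recurs in another group. Between obese and lean, 0 of the 34 genes were called under every alternative run, in both cohorts and for the difference between them. Over all genes, the untreated comparison called 1 gene on the FPKM scale, 1 with median-ratio scaling and 3 with all 20 libraries in one fit. The injected one called 2 and 6 under the last 2 of these. The difference between them called 1 with a minimum of 1 TPM, 2 on the FPKM scale, 2 with median-ratio scaling, 5 without Ttr and mitochondrial genes and 1 with robust eBayes. Leaving out 1 rat gave 0 to 1, 0 to 25 and 0 to 14 genes called in these 3 comparisons, the highest of the last 2 without lean control rat 13. Between cohorts, leaving out 1 rat gave 17 to 28 of 34 called in the lean pair and 20 to 30 in the obese pair. The sign of Psmc4 turned from 0.12 to -0.14 (FPKM) and -0.091 (median ratio) in the lean pair and from 0.10 to -0.18 and -0.13 in the obese pair, and that of Psmd14 from 0.03 to -0.24 and -0.19, where Psmd14 and, on the FPKM scale, Psmc4 were called in the obese pair. Of the calls, 14 of 22 and 17 of 25 held under every alternative. Spearman's rho of 0.59 between Psmb9 and Tapbp missed the threshold. With median-ratio scaling, chosen after seeing the data, Pearson's r was 0.70 for Psme1, 0.77 for Psme2, 0.67 for Tapbp and -0.12 for B2m. Spearman's rho on that scale was 0.58, 0.66, 0.52 and -0.11 in the same order. None of these rho passed the threshold (permutation p adjusted over the 4 genes 0.104, 0.0878, 0.114 and 0.733). The causes were not tested. Depth per value is unknown, and 4 to 6 rats a group limit the precision.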
